A study of Rattus norvegicus with 6 samples.

Results

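The 7 genes described here encode parts of the Toll-like receptor and NF-κB signalling pathway: Tlr4 (ENSRNOG00000010522), Tlr2 (ENSRNOG00000009822), Cd14 (ENSRNOG00000017819), Myd88 (ENSRNOG00000013634), Nfkbia (ENSRNOG00000007390), Nfkb1 (ENSRNOG00000023258) and Rela (ENSRNOG00000030888). They were chosen by name for their place in the pathway and taken by Ensembl identifier from a table of 33884 genes, and all 7 were found in it. The data are RNA-seq read counts of CD45+HIS36+ macrophages, sorted by flow cytometry from infarcted cardiac tissue of Sprague Dawley rats at 72 h after MI. WT and Dusp6-deficient rats gave 3 libraries each. The animals were age-matched, young adult males, and MI was made in both genotypes by permanent ligation of the LAD coronary artery. The Dusp6-deficient rats come from 1 mutant line made with CRISPR/Cas9, in which a single inserted base in the first exon of Dusp6, a phosphatase of ERK, creates a premature stop codon. The labels list libraries and do not say whether each came from its own rat, so the p-values measure only the spread among these libraries.

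Toll-like receptors on macrophages recognise microbial products and molecules released by damaged cells, and after MI they are among the receptors through which dying heart tissue triggers inflammation. Signals from most of these receptors pass through the adaptor MyD88 to the IκB kinases, which mark the inhibitor IκBα for destruction and free NF-κB to enter the nucleus. NF-κB then drives cytokine and chemokine genes, and also the gene of its own inhibitor, which closes a feedback loop.

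The depth, as total counts on genes, was 15806508, 16467086 and 12089585 for WT replicates 1, 2 and 3, and 17274938, 14183096 and 14124625 for the Dusp6-deficient ones. Levels are given as CPM, read counts scaled to a library size corrected by the TMM method. The smallest count among the 7 genes was 230, for Tlr4 in WT replicate 1, or 13.6 CPM with an exact 95% Poisson interval of 11.9 to 15.5 that covers counting error only. Dusp6-deficient replicate 1 stood apart from its group: the chi-square statistic per gene, near 1 for a library sequenced again, was 154 and 129 against replicates 2 and 3, while these gave 27.6 between them. The WT pairs gave 53.4, 80.8 and 71.8. Calls by the main edgeR test, and counts of genes or ratios without overlap, are given with and without Dusp6-deficient replicate 1. Calls by DESeq2 are given with all libraries only. The table does not pair identifiers with symbols, so the level of Dusp6, macrophage markers that would check the sort, markers of other cell types and other genes of the pathway were not analysed here.

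None of the 7 genes passed the test between the genotypes. By edgeR's quasi-likelihood test with Benjamini-Hochberg adjustment, 708 of 12756 genes tested (5.55%) rose in Dusp6-deficient macrophages and 341 (2.67%) fell, or 8.22% in either direction, at an adjusted p under 0.05. Under upper-quartile normalization, the split was 551 higher and 435 lower. All 7 genes had enough reads to be tested, and 0 of 7 passed. At an unadjusted p under 0.05 the count was 1 of 7, Nfkb1, against 30.6% of all genes tested. It was 2 of 7 without Dusp6-deficient replicate 1 (Tlr4 and Nfkb1), against 42.8%, and 2 of 7 without WT replicate 3 (Tlr2 and Nfkb1), against 24.5%. DESeq2 passed 1 of 7, again Nfkb1, against 16.5% of the genes it gave an adjusted p. With a log2 fold change over 1 added to the edgeR threshold, 0 of 7 passed, against 5.62% of all genes tested. Nfkb1 met both thresholds without Dusp6-deficient replicate 1 (-1.81, edgeR adjusted p 0.0106), where the share of all genes was not counted. The median log2 fold change of the 7 genes was -0.15, with 2 above 0 and 5 below, and that of all genes tested was 0.024. The median of the 7 moved with single libraries: it was -0.019 without WT replicate 1 (3 above 0), -0.053 without Dusp6-deficient replicate 2 (3 above 0), -0.28 without WT replicate 3 (2 above 0) and -0.35 without Dusp6-deficient replicate 1 (1 above 0). Because the cells were measured in bulk, fewer cells expressing a gene and less RNA per cell cannot be told apart.

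The calls over all genes depended on single libraries. Without Dusp6-deficient replicate 1, 28.6% of the genes tested passed, 2028 higher and 1720 lower, and 2 of the 7 genes, Tlr4 and Nfkb1, were among them. Without any 1 of the other 5 libraries, between 1 and 68 genes passed as higher and between 5 and 80 as lower, and 0 of the 7 genes were among them.

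**Figure D1:**
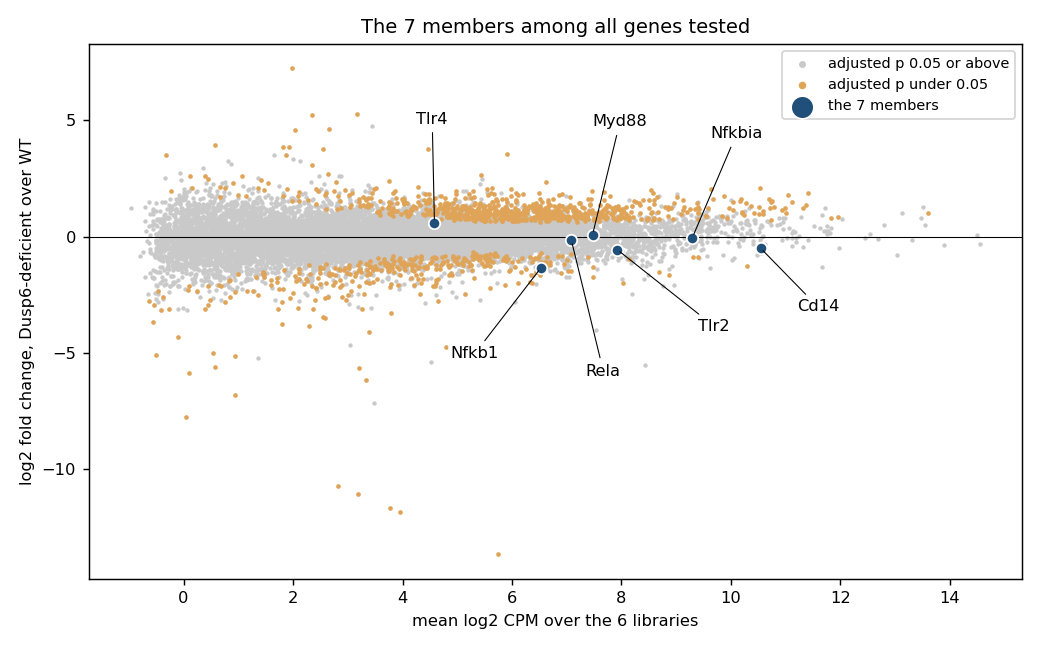
Each point is 1 of the 12756 genes tested, with its mean log2 CPM over the 6 libraries on the x axis and its log2 fold change, Dusp6-deficient over WT, on the y axis; orange points had an adjusted p under 0.05 and the 7 genes are blue. Nfkb1 sits at -1.33, with genes of similar level both above and below it, and the other 6 lie between -0.55 and 0.60.

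The start regions of the 7 genes were searched on both strands for the κB consensus motif, the 10-base pattern bound by NF-κB. RefSeq windows on build GRCr8, from 250 bases before to 50 after each start, were found for all 7, and 3 held a match: Tlr2, Nfkbia and Nfkb1. Among all 33469 windows of this length, 1400 (4.18%) held one. The stretches of Nfkbia and Nfkb1 are shown because inhibitor and subunit genes are known targets of NF-κB itself, and that of Tlr2 because it held the remaining matches. All are on the minus strand of their chromosome and are written 5′ to 3′, with matching bases in capitals. Nfkb1 (chr2:226805433-226805562) and Nfkbia (chr6:78597043-78597172) run from 100 bases before to 30 after the start, and Tlr2 (chr2:171504728-171504788) covers its matches with 25 bases on either side.
Nfkb1: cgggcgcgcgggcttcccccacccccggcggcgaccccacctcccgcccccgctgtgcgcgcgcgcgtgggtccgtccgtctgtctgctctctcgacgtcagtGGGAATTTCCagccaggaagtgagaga
Nfkbia: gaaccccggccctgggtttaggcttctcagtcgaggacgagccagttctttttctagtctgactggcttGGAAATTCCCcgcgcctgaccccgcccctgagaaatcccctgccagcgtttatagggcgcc
Tlr2: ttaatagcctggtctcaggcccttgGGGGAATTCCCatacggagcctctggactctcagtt
The Nfkb1 match covers bases 4 to 13 after the start. The Nfkbia match lies 31 to 22 bases before the start, on the strand opposite to the one printed. Its capitals therefore show the reverse complement of the motif. The Tlr2 capitals hold 2 overlapping matches, between 206 and 196 bases before the start. A match is a run of letters, and binding was not measured in these data.

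Tlr4, the receptor for bacterial lipopolysaccharide, had 13.6, 20.7 and 22.6 CPM in WT replicates 1, 2 and 3, from 230, 358 and 311 counts. In Dusp6-deficient replicates 1, 2 and 3 it had 14.4, 36.0 and 35.9 CPM, from 251, 447 and 449 counts. Dusp6-deficient replicates 2 and 3 lay above every WT library, while replicate 1 lay among the WT values, so the genotypes overlapped. The means were 19.0 ± 4.72 and 28.8 ± 12.5 CPM (SD, n = 3 each). The log2 fold change was 0.60 ± 0.365 (SE; 95% interval -0.23 to 1.43), with an edgeR adjusted p of 0.293. Without Dusp6-deficient replicate 1 it was 0.88, with an edgeR adjusted p of 0.0311. That p was the lowest over the 11 alternatives with genotype as the only term, which reached up to 0.644. The smallest log2 fold change, 0.36, came without Dusp6-deficient replicate 3.

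Tlr2, the receptor for bacterial lipoproteins, had 447, 262 and 155 CPM in the WT libraries and 159, 217 and 214 CPM in the Dusp6-deficient libraries. The Dusp6-deficient values were all inside the WT range. Within WT the highest library was 2.87 times the lowest, against 1.36 times within Dusp6-deficient. The WT spread was wider than in 91.2% of the tested genes that had counts in every library. Between the genotypes, the log2 fold change was -0.55 ± 0.351 (SE; 95% interval -1.35 to 0.25), with an edgeR adjusted p of 0.315. It was -0.12 without WT replicate 1 and -0.89 without WT replicate 3, where the adjusted p was 0.110, the lowest over the alternatives (up to 0.838).

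Cd14, the co-receptor that hands lipopolysaccharide to the Tlr4 complex, had 3339, 1032 and 842 CPM in the WT libraries. In the Dusp6-deficient libraries it had 1469, 975 and 1276 CPM. WT replicate 1 stood far above the rest, and the other 5 libraries were mixed in order. Within WT the highest library was 3.97 times the lowest, against 1.51 times within Dusp6-deficient. The WT spread was wider than in 95.2% of the tested genes that had counts in every library. With all libraries, the log2 fold change was -0.49 ± 0.480 (SE; 95% interval -1.57 to 0.60), with an edgeR adjusted p of 0.517, and without WT replicate 1 it was 0.38. The direction for Cd14 therefore rested on 1 library.

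Myd88, the adaptor, had 208, 162 and 146 CPM in the WT libraries and 211, 166 and 171 CPM in the Dusp6-deficient libraries. The values overlapped, with replicate 1 the highest of each genotype. Its log2 fold change was 0.086 ± 0.208 (SE; 95% interval -0.39 to 0.56), with an edgeR adjusted p of 0.807, and its sign turned when WT replicate 3 (-0.053) or Dusp6-deficient replicate 1 (-0.081) was left out.

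Nfkbia, which encodes the inhibitor IκBα, had 637, 521 and 749.8 CPM in the WT libraries and 661, 551 and 646 CPM in the Dusp6-deficient libraries. The Dusp6-deficient values all lay inside the WT range. Here the log2 fold change was -0.038 ± 0.207 (SE; 95% interval -0.51 to 0.43), with an edgeR adjusted p of 0.918. It turned positive without WT replicate 3 (0.063) or without Dusp6-deficient replicate 2 (0.030).

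Nfkb1 encodes a precursor that is processed to a DNA-binding subunit of NF-κB. It had 193, 106 and 96.9 CPM in WT replicates 1, 2 and 3, from 3261, 1833 and 1331 counts. In Dusp6-deficient replicates 1, 2 and 3 it had 79.2, 41.4 and 36.7 CPM, from 1384, 514 and 459 counts. The highest Dusp6-deficient library lay below the lowest WT library, and replicate 1 was the highest of each genotype. Nfkb1 was the 1 gene of 7 without overlap between the genotypes, where 34.1% of all genes tested did not overlap and 16.3% did so with the Dusp6-deficient values lower. Without Dusp6-deficient replicate 1, 3 of the 7 genes (Tlr4, Nfkb1 and Rela) did not overlap, against 59% of all genes tested. Without WT replicate 3, the count was 2 (Tlr2 and Nfkb1), against 43.8%. With 1 library fewer, values are less likely to overlap in any gene.

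The means of Nfkb1 were 132 ± 53.4 CPM in WT and 52.4 ± 23.3 CPM in Dusp6-deficient macrophages (SD, n = 3 each). The log2 fold change was -1.33 ± 0.365 (SE; 95% interval -2.16 to -0.50), a fold of 0.398 (0.224 to 0.706). The unadjusted edgeR p was 0.00549, rank 1274 of 12756, and the adjusted p of 0.0549 missed the threshold of 0.05. Its log2 fold change was larger in size than that of 92.2% of the genes tested. Over the 11 alternatives with genotype as the only term, the adjusted p ran from 0.00475 to 0.202 and the log2 fold change from -1.81 to -0.97. Nfkb1 passed under 3 of them: with DESeq2 (-1.36, adjusted p 0.00475), without Dusp6-deficient replicate 1 (-1.81, adjusted p 0.0106) and without the filter on low counts (-1.32, adjusted p 0.0283). Without that filter, edgeR called 7.04% of the 18770 genes tested. Nfkb1 did not pass under RLE or upper-quartile normalization, with at least 10 counts in every library, or without any 1 of the other 5 libraries.

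Rela encodes the NF-κB subunit that carries the activation domain. It had 172, 134 and 122 CPM in the WT libraries and 154, 109 and 122 CPM in the Dusp6-deficient libraries. The genotypes overlapped. The log2 fold change was -0.15 ± 0.216 (SE; 95% interval -0.64 to 0.34), with an edgeR adjusted p of 0.669. It was -0.019 without WT replicate 1 and -0.35 without Dusp6-deficient replicate 1.

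**Figure D2:**
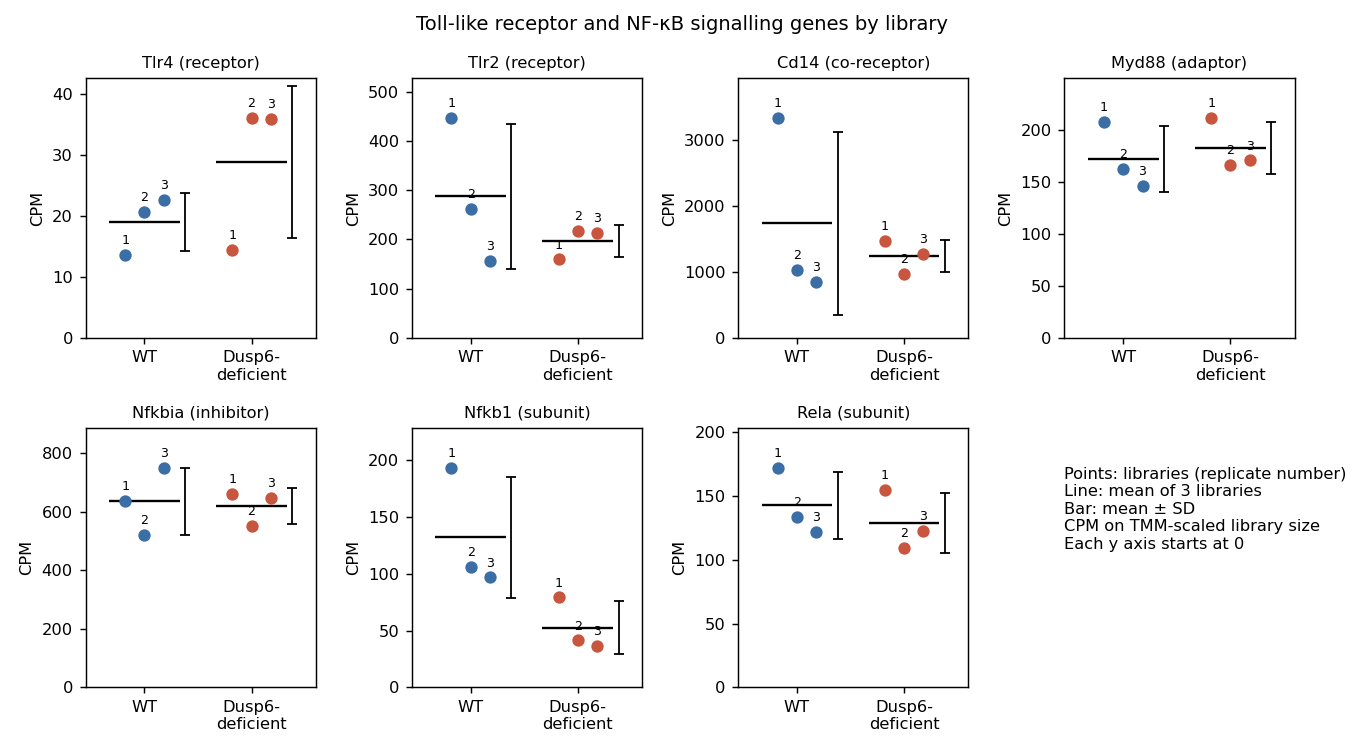
CPM of each gene on the y axis, by genotype on the x axis; points are libraries with their replicate number, lines are means of 3 libraries and bars are mean ± SD. Nfkb1 is the panel without overlap, WT replicate 1 stands above the rest for Tlr2 and Cd14, and Dusp6-deficient replicate 1 lies apart from replicates 2 and 3 for Tlr4.

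Libraries were not alike across the 7 genes. WT replicate 1 was the highest of all 6 libraries for 4 genes, Tlr2, Cd14, Nfkb1 and Rela, and the lowest for Tlr4, while it was the highest for 14.7% of all genes tested. WT replicate 3 was the lowest for 3 genes, Tlr2, Cd14 and Myd88, against 18.4% of all genes tested. Replicate 1 was the highest library within both genotypes for 4 of 7 genes, Cd14, Myd88, Nfkb1 and Rela, against 13.8% of all genes. These counts were chosen after the values were seen. On the log2 CPM scale, Dusp6-deficient replicate 1 differed from the WT mean by -0.67 for Nfkb1, and the mean of replicates 2 and 3 by -1.69. For Tlr4 the values were -0.37 and 0.96, on opposite sides of the WT mean. The part of differences between libraries in these results was not tested.

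**Figure D3:**
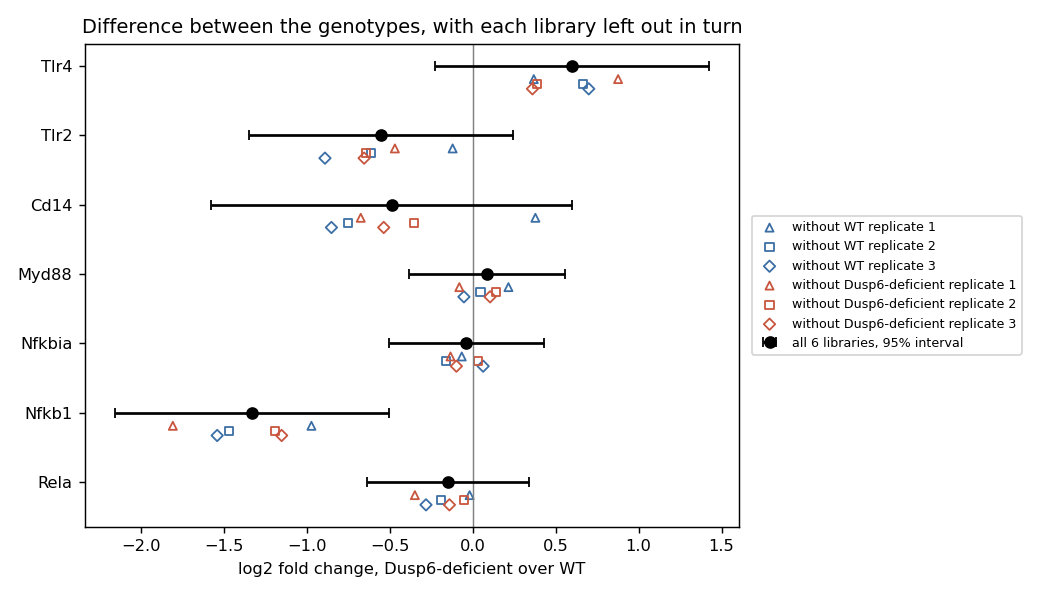
Log2 fold change of each gene, Dusp6-deficient over WT, on the x axis; black points use all 6 libraries with their 95% interval, and open symbols leave out 1 library. The interval of Nfkb1 alone excludes 0, and the value of Cd14 moves to 0.38 without WT replicate 1.

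Ratios of 2 genes' counts within a library do not depend on how libraries are scaled. They were compared between libraries only, since gene length was not taken into account. The ratio of Nfkb1 to Rela counts was 1.12, 0.791 and 0.794 in WT and 0.513, 0.380 and 0.300 in Dusp6-deficient replicates 1, 2 and 3. The 2 genotypes did not overlap, and the geometric mean was 0.891 in WT and 0.388 in Dusp6-deficient macrophages, or 2.29 times higher in WT. The ratio of Nfkbia to Nfkb1 counts, inhibitor over subunit, was 3.29, 4.93 and 7.74 in WT and 8.35, 13.3 and 17.6 in Dusp6-deficient libraries. These ranges did not overlap either, with WT replicate 3 and Dusp6-deficient replicate 1 close to each other.

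Of the 21 ratios among the 7 genes, 5 did not overlap between the genotypes, against 31.5% of all pairs of the 12643 genes counted in every library. Of those 5, 4 contained Nfkb1, with Cd14, Myd88, Nfkbia and Rela, where 6 of the 21 ratios contain it. Nfkb1 itself did not overlap in CPM, so these 4 ratios largely restate that difference and are not separate support. The share among pairs holding such a gene was not counted. Without Dusp6-deficient replicate 1, 12 of 21 ratios did not overlap, against 55.3% of all pairs. Without WT replicate 3 it was 9 of 21, against 42.6%. Nfkb1 was in 6 of those 12, as was Tlr4, and in 4 of those 9. The ratio without overlap that did not contain Nfkb1 was, with all 6 libraries, Myd88 to Rela, at 1.21, 1.22 and 1.20 in WT and 1.37, 1.52 and 1.40 in Dusp6-deficient libraries. The WT libraries were nearly equal in this ratio although both genes differed in CPM among them. The ratios were looked at after the counts were seen, so no test is given.

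**Figure D4:**
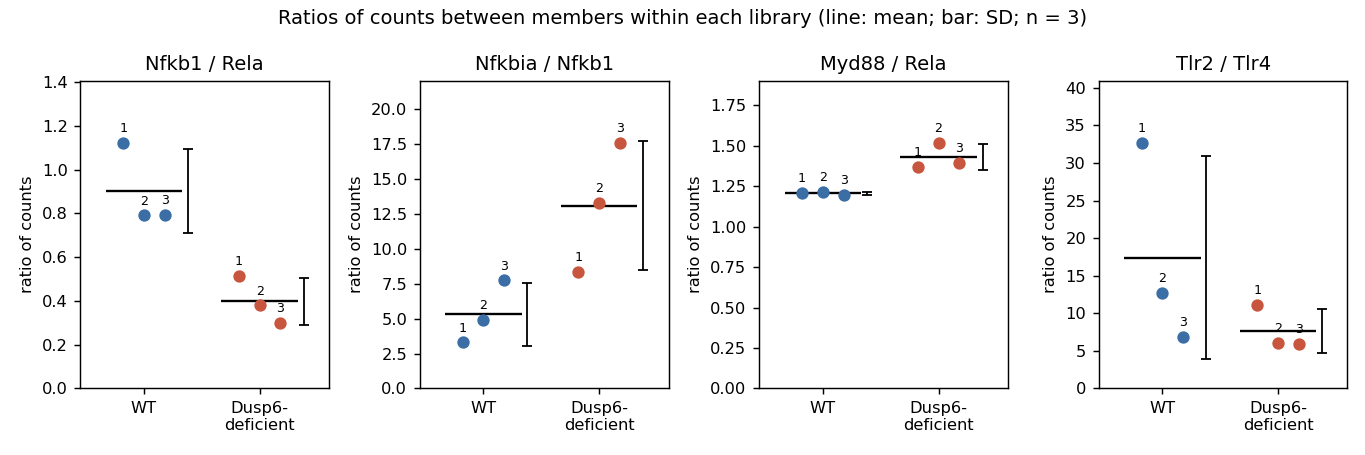
Ratio of counts between 2 genes within each library on the y axis, by genotype on the x axis; points are libraries with their replicate number, lines are means and bars are mean ± SD. The first 3 panels show no overlap between the genotypes, and in the last one the Tlr2 to Tlr4 ratio of WT replicate 3 (6.86) lies among the Dusp6-deficient values.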

How the data were processed

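RNA-seq of 3 WT and 3 Dusp6-deficient macrophage libraries was used. The deposited values are raw counts per gene, which the authors made with Trim Galore (adapter trimming), HISAT2 (alignment to Rnor_6.0) and featureCounts 1.5.0-p3. The annotation release, the strand setting and how multi-mapping reads were handled are not given in the sources used here. Counts were tested in R 4.3.3 with edgeR 4.0.16 (filterByExpr, TMM, quasi-likelihood test on genotype, Benjamini-Hochberg adjustment over all genes tested, threshold 0.05), after the code was tested on simulated data. Standard errors were derived from the F statistic. Alternatives were DESeq2 1.42.0, RLE and upper-quartile normalization, no filter, at least 10 counts in every library, a replicate block, each library left out in turn and a log2 fold change over 1. Counts of genes and ratios without overlap, and their alternatives, were chosen after seeing the data. The members and lists were chosen with earlier results of these data known. The rule for named genes took the 7 members, genes of pathway lists that passed the test or had the highest CPM, and for each member the genes with the most similar levels. Of 33884 identifiers, 0 could be paired with a symbol in the reference tables, so the rule was applied to the 7 members only, and the 147 other symbols listed (pathway genes and markers) were not analysed here. The symbols of the members come with their selection. Start regions are from RefSeq (GRCr8), a different build from that of the counts.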

Additional observations from a re-analysis of the deposited data

How the results depend on the processing

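Of 84 log2 fold changes of the 7 genes under the alternatives, 74 kept their direction and side of the threshold, 5 passed the threshold in the same direction and 5 reversed. All reversals came from leaving out 1 library: the range over the 6 such fits was -0.85 to 0.38 for Cd14, -0.081 to 0.22 for Myd88 and -0.16 to 0.063 for Nfkbia. With 1 library left out in turn, the genes that rose numbered 1 to 2028, those that fell 5 to 1720, and 0 to 2 of the 7 genes passed. DESeq2 gave 1188 higher, 986 lower and 1 of the 7 genes, against 16.5% of the genes it gave an adjusted p. Adding a log2 fold change over 1 left 442 higher and 275 lower. Without the filter on low counts 1 of the 7 passed, against 7.04% of the 18770 genes tested. With the replicate block, 307 of the 12756 genes tested were higher and 190 lower. Of the 7 genes, 1 passed, Nfkb1 (-1.35, edgeR adjusted p 0.0291). The replicate numbers did not pair the libraries: across genes, the correlation between libraries of the same number, after subtracting each genotype's mean, was 0.106, -0.118 and -0.139, so not every library correlated best with its own number. The cause of these changes was not tested.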
